A study of Mus musculus with 12 samples.

Results

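The collagen genes examined here were the 34 listed mouse collagen chains, from Col1a1 to Col28a1, out of 55401 genes in the count table. They were listed by chain name, and all 34 were present in the table. A filter on low counts left 20818 genes for testing, and 33 of the 34 collagens passed it. Col9a1, a chain of the fibril-associated collagen IX of cartilage, had 0 counts in every tumor.

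RNA was measured by poly(A) RNA-seq in 12 subcutaneous tumors of TC2Ras cells, a Ras-driven mouse prostate cancer line, collected at day 21, and each library combined the left and right flank tumors of 1 mouse. Control tumors (n = 3) grew from 125000 TC2Ras cells alone in mice given water with 0 ppb inorganic arsenic (iAs), and As300 tumors (n = 3) grew from the same cells in mice given 300 ppb iAs. ASC tumors (n = 3, 0 ppb iAs) and ASC_As300 tumors (n = 3, 300 ppb iAs) contained 1% GFP-expressing adipose-derived stromal cells (ASC) among the implanted cells. All mice had low-arsenic AIN-76A chow and Milli-Q water before implantation. The ASC came from male mice, and the strain and age of the tumor-bearing mice are not given in the sources used here. The sample labels name adipose-derived stromal cells as the cell type of every library, whereas the protocols describe whole tumors. The comparisons address whether ASC, iAs or the combination altered the tumor tissue.

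Collagens are proteins of the extracellular matrix in which chains wind into a helix of 3 chains. Fibril-forming collagens give connective tissue its strength, network collagens build basement membranes, and other classes decorate fibrils, span the cell membrane or anchor the epithelium. In tumors, fibroblast-like stromal cells are the best known source of fibrillar collagen, while endothelial, mural and epithelial cells also deposit basement membrane chains.

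Total counts were between 39157647 (ASC replicate 2) and 55168642 (As300 replicate 3), and the most abundant gene, CT010467.1, took 3.23 to 11.4% of a library. Levels are given as CPM, the counts of a gene scaled to a common library total after TMM scaling, and, where genes are compared with each other, as CPM per kb of the main transcript. Summed over marker lists, the 12 fibroblast genes reached 1658 to 2370 CPM, the 7 endothelial genes 167 to 285 CPM and the 5 leukocyte genes 150 to 295 CPM, so the libraries were mixed tissue. In such bulk samples fewer cells of a type and less RNA per cell cannot be told apart.

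Some chains lie head to head with a partner chain, and their starts are shown first because the levels of these partners are compared further on. Col4a1 and Col4a2 encode the chains of the common basement membrane collagen IV, and their starts overlapped by 22 bases on chromosome 8. The starts of Col4a4 and Col4a3, 2 chains of the specialised collagen IV of kidney and lung, were 71 bases apart on chromosome 1. Those of Col4a6 and Col4a5, the remaining chains of the family, were 1308 bases apart on chromosome X. The windows below are from RefSeq on GRCm38.p6, run from 250 bases before to 50 bases after the start and are written on the strand of the named gene. Capitals mark the letters GGGCGG or their reverse complement CCGCCC (GC box), and CCAAT or its reverse complement ATTGG. The 2 motifs shared 0 bases in these windows.
Col4a2 (chr8:11312555-11312854, plus strand, holding the starts of Col4a1 and Col4a2): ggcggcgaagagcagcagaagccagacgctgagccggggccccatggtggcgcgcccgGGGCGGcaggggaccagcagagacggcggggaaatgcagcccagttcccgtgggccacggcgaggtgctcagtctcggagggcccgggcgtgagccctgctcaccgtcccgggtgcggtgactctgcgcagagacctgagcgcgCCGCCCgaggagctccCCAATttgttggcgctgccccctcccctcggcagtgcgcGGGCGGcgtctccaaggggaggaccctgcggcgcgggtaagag
Col4a4 (chr1:82586800-82587099, minus strand, holding the starts of Col4a4 and Col4a3): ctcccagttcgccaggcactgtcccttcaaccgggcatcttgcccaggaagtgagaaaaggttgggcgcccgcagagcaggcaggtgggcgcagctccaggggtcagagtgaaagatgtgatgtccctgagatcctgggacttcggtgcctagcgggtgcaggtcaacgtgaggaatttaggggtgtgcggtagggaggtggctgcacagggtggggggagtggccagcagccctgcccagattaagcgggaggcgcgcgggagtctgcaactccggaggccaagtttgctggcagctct
Col4a5 (chrX:141475169-141475468, plus strand): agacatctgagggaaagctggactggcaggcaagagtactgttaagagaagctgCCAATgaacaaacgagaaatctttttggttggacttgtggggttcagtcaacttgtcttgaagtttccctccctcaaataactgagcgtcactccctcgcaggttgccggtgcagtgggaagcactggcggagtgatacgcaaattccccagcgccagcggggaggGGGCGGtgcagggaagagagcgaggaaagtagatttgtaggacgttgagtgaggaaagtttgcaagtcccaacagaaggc
Col4a6 (chrX:141474027-141474326, minus strand): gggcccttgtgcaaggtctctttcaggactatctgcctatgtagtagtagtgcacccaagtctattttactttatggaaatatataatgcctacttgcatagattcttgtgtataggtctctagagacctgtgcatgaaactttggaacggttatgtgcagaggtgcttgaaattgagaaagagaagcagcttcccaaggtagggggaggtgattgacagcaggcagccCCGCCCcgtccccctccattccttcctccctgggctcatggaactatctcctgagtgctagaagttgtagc
The Col4a2 window held 3 GC boxes and 1 CCAAT, the Col4a5 window 1 of each, the Col4a6 window 1 GC box and no CCAAT, and the Col4a4 window neither. A window was found for 29 of the 34 collagens, in 32 windows. Of these, 62.5% held a GC box and 34.4% a CCAAT, against 35.7% and 37.4% of all 32851 windows.

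Per kb of transcript, the fibril-forming chains of collagens I and III led. Col3a1, the only chain of collagen III, had a mean level over the 12 tumors of 457.5 CPM per kb, Col1a1 316.9 and Col1a2, its partner in collagen I, 283.1. Together these 3 genes made up 53.2% of the summed level of the collagens. Col18a1, whose C-terminal fragment is endostatin, was the fourth at 187.1 CPM per kb, ahead of the collagen VI chains Col6a1 (169.5) and Col6a2 (105.5). Col4a1 (93.5), Col4a2 (78.7), Col6a3 (74.4) and Col5a3 (64.8) completed the 10 most abundant genes, which held 92.2% of the level. At the other end, Col4a3 averaged 0.0419 CPM per kb, with 10 to 24 counts per tumor, and Col10a1, the collagen of hypertrophic cartilage, had 0 to 31 counts. For Col9a1, a count of 0 allows up to 12 counts, or 0.212 to 0.322 CPM per tumor, if 1 read pair gave 4 counts. The neighbours in this order often lay within their spread, since the coefficient of variation within groups was 16.2% for Col1a2, 18.6% for Col1a1 and 22.0% for Col3a1.

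**Figure D1:**
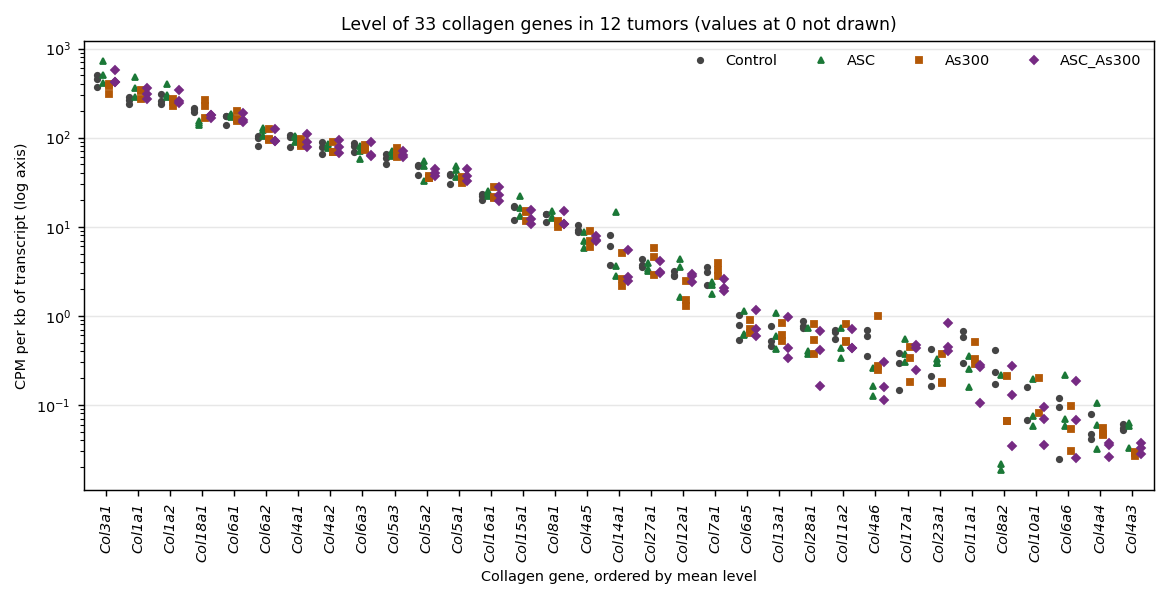
Level of 33 collagen genes in each of the 12 tumors, in CPM per kb of transcript on a log axis, with genes ordered by their mean and 1 point per tumor by group. Mean levels run from 457.5 CPM per kb for Col3a1 to 0.0419 for Col4a3, and tumors of the 4 groups mostly overlap.

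The collagens together took 1.11% ± 0.132 (SD, n = 3) of all counts in Control, 1.20% ± 0.179 in ASC, 1.04% ± 0.0585 in As300 and 1.11% ± 0.179 in ASC_As300. The lowest tumor was Control replicate 1 (0.972%) and the highest ASC replicate 2 (1.39%), and all 4 groups overlapped. Within this share, the fibril-forming class took 0.667% ± 0.0947 in Control and 0.796% ± 0.158 in ASC. The class of multiplexins and the anchoring fibril (Col15a1, Col18a1, Col7a1) behaved differently, with 0.111 to 0.115% in the Control tumors and 0.0724 to 0.0830% in the ASC tumors. The latter ranges did not overlap, and they follow Col18a1, by far the most abundant of these genes.

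A gene was called changed at an adjusted p under 0.05 (edgeR's quasi-likelihood test, Benjamini-Hochberg over all genes tested) with at least a 1.5-fold change. No collagen was called in any of the 8 comparisons. Calls over all genes were 0.721% in ASC against Control, 1.06% in As300 against Control, 0.807% in ASC_As300 against Control and 0.855% in ASC_As300 against As300. They were 1.45% for the effect of ASC averaged over 0 and 300 ppb iAs and 0% in ASC_As300 against ASC, for the effect of iAs averaged over tumors with and without ASC and for the interaction. The 3 comparisons with Control share its 3 tumors. With so few calls among all genes, 0 of 33 does not set the collagens apart. DESeq2 called 1 collagen for the ASC effect (Col4a6), where it called 2.11% of all genes, and 1 in ASC_As300 against As300 (Col7a1), where it called 1.82%. It called 0 collagens in the other 6 comparisons, where its calls over all genes were 3.18% in ASC against Control, 5.07% in As300 against Control, 2.53% in ASC_As300 against Control, 0.0353% in ASC_As300 against ASC, 0.771% for the iAs effect and 1.04% for the interaction.

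At an unadjusted p under 0.05, the ASC effect gave 2 higher and 4 lower collagens, against 6.93% of all genes higher and 3.96% lower. ASC against Control gave 1 higher and 5 lower (8.55% and 6.87% of all genes), ASC_As300 against Control 1 and 3 (8.7% and 6.5%) and ASC_As300 against As300 1 and 3 (6.33% and 3.65%). As300 against Control gave 0 and 2 (11.2% and 13%), the iAs effect 0 and 5 (7.51% and 8.46%), the interaction 0 and 1 (7.08% and 6.55%) and ASC_As300 against ASC 0 and 0 (1.47% and 1.74%). The median log2 fold change of the 33 collagens was 0.06 for the ASC effect and -0.10 for the iAs effect, beside -0.0042 and -0.02 over all genes. For the ASC effect 22 of 33 collagens had a positive estimate, and for the iAs effect 10 of 33 did. Over all genes both medians were just below 0, so negative estimates were at least as common as positive ones. Several chains varied together across tumors, as given further on, so these are not counts of independent genes.

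Counted by tumors that did not overlap between 2 groups, ASC against Control gave 1 higher and 3 lower collagens, where 9.94% of all genes were higher and 9.01% lower. As300 against Control gave 0 and 3 (14.5% and 15.4%), and ASC_As300 against Control 0 and 7 (13.5% and 12.2%). The latter were Col4a3, Col4a4, Col4a5, Col4a6, Col11a1, Col18a1 and Col28a1, of which 4 are collagen IV chains. Of these, Col4a3 had only 12 to 16 counts and Col4a4 14 to 19 counts in ASC_As300. The abundant collagen IV chains Col4a1 and Col4a2 overlapped in all groups. ASC_As300 against ASC gave 2 and 0 (4.17% and 3.91%), and ASC_As300 against As300 2 and 3 (11.3% and 8.37%).

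**Figure D2:**
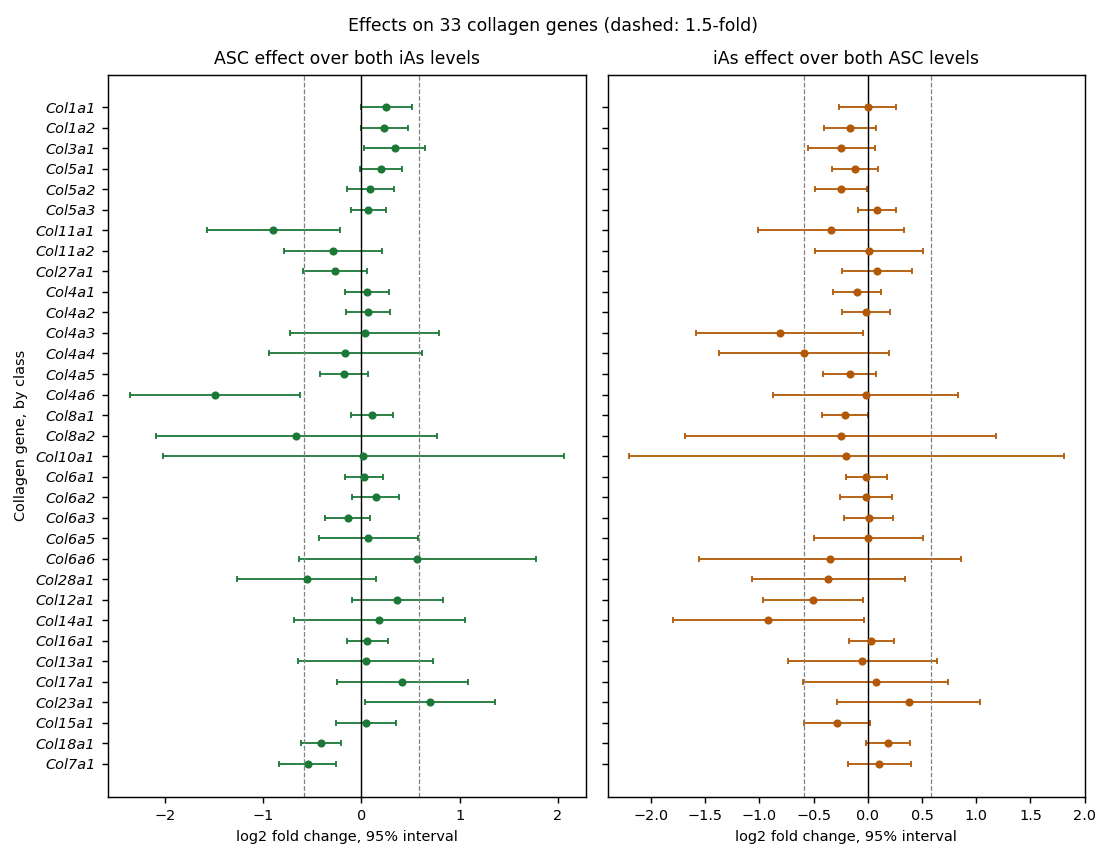
Log2 fold changes of 33 collagen genes with 95% intervals, for the ASC effect over both iAs levels (left) and the iAs effect over both ASC levels (right), with dashed lines at 1.5-fold. For ASC the intervals of Col18a1, Col7a1, Col4a6 and Col11a1 lie below 0 and those of Col3a1 and Col23a1 above 0, and no collagen passed both call criteria.

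Among the fibril-forming chains, Col1a1 was measured at 1420, 1680 and 1553 CPM in Control, 1717, 2877 and 2129 in ASC, 1984, 2046 and 1597 in As300 and 1605, 2116 and 1827 in ASC_As300. The ASC tumors all lay above Control, with ASC replicate 2 highest of the 12, while the As300 and ASC_As300 tumors overlapped Control. The difference of ASC from Control was 0.53 on the log2 scale (SE 0.17), with an adjusted p of 0.186, and it missed the threshold. Without ASC replicate 1, the lowest of the ASC tumors for this gene, it was 0.71, with an adjusted p of 0.0448. Leaving out the lowest tumor of the higher group enlarges the difference, so this value does not show that it is robust. The interaction for Col1a1 was -0.55 (SE 0.24, adjusted p = 0.352), the only collagen at an unadjusted p under 0.05 in that test.

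Col1a2 gave 1290, 1662 and 1389 CPM in Control, 1592, 2143 and 1543 in ASC, 1440, 1357 and 1199 in As300 and 1326, 1838 and 1389 in ASC_As300. Col3a1 gave 2055, 2839 and 2522 CPM in Control, 2812, 4025 and 2298 in ASC, 2237, 2123 and 1725 in As300 and 2364, 3204 and 2341 in ASC_As300. For both genes ASC replicate 2 was the highest tumor, all groups overlapped Control, and the ASC_As300 tumors lay above As300 for Col3a1. The ASC effect was 0.24 (SE 0.11, adjusted p = 0.476) for Col1a2 and 0.34 (SE 0.14, adjusted p = 0.399) for Col3a1, and without ASC replicate 2 these were 0.15 and 0.21. ASC replicate 2 also had the highest summed adipocyte markers, at 385 CPM against 1.58 to 172 CPM in the other 11 tumors, and the part of this in its collagen levels was not tested.

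The collagen V chains, which regulate fibril diameter, were less abundant. Col5a1 gave 253.9, 329.0 and 323.7 CPM in Control, 360.1, 407.7 and 302.4 in ASC, 288.8, 307.5 and 263.6 in As300 and 276.6, 374.7 and 309.0 in ASC_As300. Col5a2 gave 254.2, 328.0 and 314.5 CPM in Control, 321.7, 361.0 and 218.5 in ASC, 246.8, 233.6 and 232.7 in As300 and 244.9, 293.8 and 265.2 in ASC_As300. The As300 tumors lay below the Control tumors for Col5a2, by a small margin, and overlapped them for Col5a1. The iAs effect on Col5a2 was -0.25 (SE 0.11, adjusted p = 0.2996).

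Col11a1, a minor fibril chain best known from cartilage, was rare, with 5.15, 4.41 and 2.26 CPM in Control, 2.71, 1.93 and 1.21 in ASC, 2.48, 2.19 and 3.94 in As300 and 2.05, 0.810 and 2.16 in ASC_As300. Every ASC_As300 tumor was below every Control and As300 tumor, whereas ASC and Control overlapped. The log2 fold change was -1.24 in ASC_As300 against Control (SE 0.45, adjusted p = 0.227) and -0.90 for the ASC effect (SE 0.31, adjusted p = 0.267). The summed level of 8 cartilage and bone markers was 426 to 573 CPM in the 6 tumors with ASC and 559 to 829 CPM in the 6 without, with 1 marker, Ibsp, at 0 in all tumors. Of the 6 tested, 0 were called for the ASC effect, where 1.45% of all genes were. All 6 had negative estimates, beside a median of -0.0042 over all genes. Among them were Col2a1, the main cartilage collagen (-2.85, adjusted p = 0.285, at only 0 to 17 counts per tumor), and Spp1, osteopontin (-0.55, adjusted p = 0.0298). Their part in the Col11a1 values was not tested. The remaining fibril-forming chains, Col5a3, Col11a2 and Col27a1, stayed above an unadjusted p of 0.05 in all 8 comparisons.

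Of the network collagens, Col4a1 gave 517.9, 669.7 and 711.7 CPM in Control, 693.0, 666.8 and 585.0 in ASC, 568.9, 642.1 and 529.0 in As300 and 596.3, 729.8 and 514.4 in ASC_As300. Col4a2 gave 420.1, 511.7 and 573.1 CPM in Control, 548.2, 514.7 and 491.6 in ASC, 448.5, 578.7 and 442.5 in As300 and 511.3, 610.2 and 438.9 in ASC_As300. All groups overlapped for both chains, and the 95% interval of the ASC effect ran from -0.16 to 0.28 for Col4a1 and from -0.15 to 0.29 for Col4a2. A change of 1.5-fold lay outside these intervals.

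Col4a6 was far rarer and differed more. It gave 3.97, 4.61 and 2.37 CPM in Control, 1.07, 1.74 and 0.839 in ASC, 1.80, 1.64 and 6.66 in As300 and 2.03, 1.05 and 0.752 in ASC_As300. The ASC and ASC_As300 tumors all lay below Control, and As300 held 2 low tumors and, in replicate 3, the highest of the 12. The ASC effect was -1.49 on the log2 scale (SE 0.40, adjusted p = 0.101). The starts of Col4a6 and its neighbour Col4a5 are those printed above, and Col4a5 gave 56.5, 67.5 and 59.6 CPM in Control, 57.7, 45.6 and 37.9 in ASC, 38.8, 45.4 and 58.0 in As300 and 52.0, 46.8 and 45.7 in ASC_As300. Only ASC_As300 was wholly below Control, and As300 against Control was -0.37 (SE 0.16, adjusted p = 0.185). Col4a3 had 0.475, 0.441 and 0.521 CPM in Control and 0.250, 0.225 and 0.247 in As300, which did not overlap but rest on 24 or fewer counts. Reads of Col4a3 and of the antisense gene C430014B12Rik, which shares 563 exon bases, cannot be told apart where counting did not use the strand. Its iAs effect was -0.81 (SE 0.36, adjusted p = 0.294).

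Col8a1, a short-chain collagen of vessels and the eye, had group means of 55.1 to 68.8 CPM and an iAs effect of -0.21 (SE 0.097, adjusted p = 0.307). Its partner Col8a2 had 4 to 87 counts per tumor, Col4a4 14 to 41 and Col10a1 0 to 31. These 3 genes stayed above an unadjusted p of 0.05 in all 8 comparisons, and their intervals were wide.

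The collagen VI chains, which form beaded filaments around cells, showed little difference. Col6a1 gave 571.1, 716.4 and 724.9 CPM in Control, 703.3, 728.0 and 747.9 in ASC, 656.3, 825.1 and 637.7 in As300 and 643.2, 769.9 and 617.1 in ASC_As300. Col6a2 gave 314.9, 411.3 and 388.6 CPM in Control, 407.3, 512.5 and 487.2 in ASC, 384.3, 499.8 and 373.7 in As300 and 365.2, 494.1 and 360.3 in ASC_As300. Col6a3 gave 621.3, 721.7 and 783.1 CPM in Control, 642.2, 718.3 and 518.9 in ASC, 660.7, 680.1 and 741.7 in As300 and 565.9, 798.3 and 578.1 in ASC_As300. All groups overlapped for the 3 chains, with ASC effects of 0.03, 0.15 and -0.14 (SE 0.088, 0.11 and 0.10). Col6a5, Col6a6 and Col28a1 were at low levels and stayed above an unadjusted p of 0.05 throughout.

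Of the fibril-associated collagens, Col12a1, which links fibrils to their surroundings, gave 33.3, 37.0 and 32.5 CPM in Control, 40.6, 50.6 and 18.6 in ASC, 28.1, 17.3 and 14.7 in As300 and 27.3, 31.9 and 33.96 in ASC_As300. All As300 tumors lay below Control, and the ASC tumors spread on both sides of it. As300 against Control was -0.78 (SE 0.30, adjusted p = 0.143) and the iAs effect -0.51 (SE 0.21, adjusted p = 0.281). Without ASC replicate 3, which was low, these were -0.78 and -0.66, with adjusted p of 0.0445 and 0.0486. That tumor is in neither group of As300 against Control, and the estimate there did not change. It enters that test only through the spread fitted over all tumors and the adjustment over all genes. Col14a1, also fibril-associated, varied from 15.8 to 83.1 CPM within ASC, with ASC replicate 2 highest, and its iAs effect was -0.92 (SE 0.41, adjusted p = 0.298). Without that tumor it was -0.35 (SE 0.29). Col16a1 was even, with group means of 113.7 to 123.9 CPM.

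Markers of other cells were also compared for iAs. The summed level of 5 adipocyte markers was 66.5 to 172 CPM in Control and 7.75 to 385 CPM in ASC, against 10.03 to 32.5 CPM in As300 and 1.58 to 21.6 CPM in ASC_As300. In ASC the 385 CPM was replicate 2, and the other tumors, at 7.75 and 14.7 CPM, lay within the range with iAs. The estimates of all 5 for the iAs effect were negative, from -3.16 to -2.35, and none was called (adjusted p = 0.183 to 0.245). The 12 fibroblast markers summed to 1658 to 1859 CPM in As300 and 1762 to 1888 CPM in ASC_As300, against 1800 to 2370 CPM in Control and 1797 to 2234 CPM in ASC. For the iAs effect 3 of the 12 had positive estimates and 0 were called. At an unadjusted p under 0.05, 2 were higher and 2 lower (7.51% and 8.46% of all genes). The higher were Fbln1 (0.25, adjusted p = 0.194) and Pdpn (0.20, adjusted p = 0.295). The lower were Postn, the matricellular protein periostin (-0.44, adjusted p = 0.183), and Lum (-0.45, adjusted p = 0.271), which is also a proteoglycan of the lists below. No marker of either list was at 0 in all tumors of a group. The part of these cells in the iAs values of Col12a1, Col14a1, Col5a2 and the proteoglycans given further on was not tested.

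Col23a1, a transmembrane collagen, gave 1.20, 0.921 and 2.41 CPM in Control, 1.68, 1.85 and 1.66 in ASC, 1.03, 2.13 and 1.01 in As300 and 2.55, 4.68 and 2.30 in ASC_As300. The ASC_As300 tumors lay above the ASC and As300 tumors and overlapped Control. The log2 fold change was 1.19 in ASC_As300 against As300 (SE 0.43, adjusted p = 0.362). Col13a1 and Col17a1, the latter a hemidesmosome component, stayed above an unadjusted p of 0.05.

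Col18a1 had the smallest adjusted p of the 33 genes. It gave 997.1, 936.2 and 1033 CPM in Control, 705.2, 729.1 and 661.1 in ASC, 796.9, 1086 and 1273 in As300 and 866.5, 805.3 and 866.0 in ASC_As300. Every ASC tumor lay below every Control tumor and below every ASC_As300 tumor, whereas As300 overlapped Control and ASC_As300. The ASC effect was -0.41 on the log2 scale (SE 0.094), a level 0.754 times that without ASC, with an adjusted p of 0.0471. It passed the p threshold and missed the fold minimum, so it was not called. ASC against Control alone was -0.50 (SE 0.13, adjusted p = 0.122), and the adjusted p of the ASC effect ran from 0.000474 to 0.121 over the alternatives.

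Col18a1 is transcribed from separate starts, and the gene counts do not tell its transcripts apart. The windows at 2 of them are printed because this gene came nearest to a call, with capitals as above.
Col18a1, upstream start (chr10:77166481-77166780, minus strand): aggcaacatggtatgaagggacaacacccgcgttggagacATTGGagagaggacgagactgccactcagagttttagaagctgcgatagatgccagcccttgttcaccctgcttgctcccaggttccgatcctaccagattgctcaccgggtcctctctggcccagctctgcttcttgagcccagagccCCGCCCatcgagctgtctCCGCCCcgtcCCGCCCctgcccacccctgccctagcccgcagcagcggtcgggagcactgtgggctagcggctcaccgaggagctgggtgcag
Col18a1, downstream start (chr10:77113656-77113955, minus strand): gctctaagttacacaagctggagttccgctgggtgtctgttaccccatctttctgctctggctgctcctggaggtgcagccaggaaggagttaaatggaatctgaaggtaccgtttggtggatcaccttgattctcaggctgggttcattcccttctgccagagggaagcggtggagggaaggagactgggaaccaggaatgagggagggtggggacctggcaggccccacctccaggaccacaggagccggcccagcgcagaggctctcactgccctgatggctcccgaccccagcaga
The upstream window held 3 GC boxes and 1 CCAAT, and the downstream window neither.

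Col7a1, the chain of the fibrils that anchor the epithelium, gave 29.0, 32.3 and 20.6 CPM in Control, 20.3, 16.4 and 21.9 in ASC, 25.9, 29.9 and 36.5 in As300 and 17.7, 23.8 and 18.8 in ASC_As300. ASC_As300 lay wholly below As300, and Control replicate 3 reached into the range of the ASC tumors. The ASC effect was -0.55 (SE 0.13, adjusted p = 0.0639). Without Control replicate 3 it was -0.63 and was called. Col15a1, a basement membrane relative of Col18a1, was -0.42 in ASC_As300 against ASC (SE 0.20, adjusted p = 1).

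**Figure D3:**
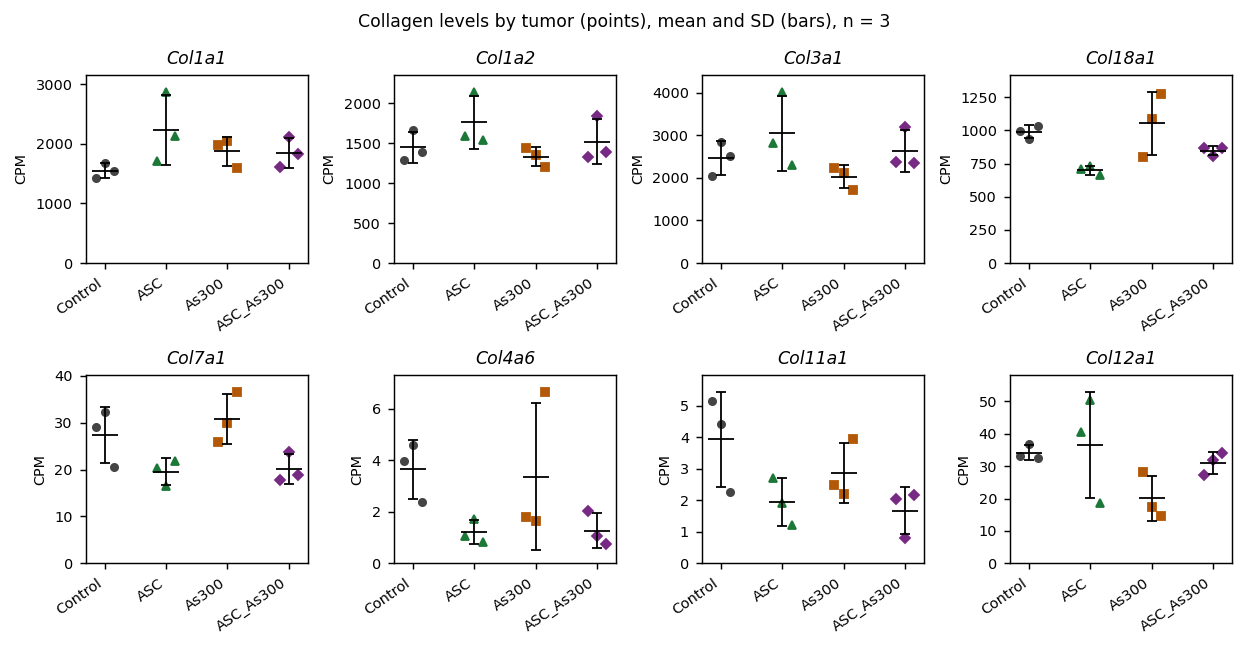
CPM of 8 collagen genes in each tumor, with the mean and SD of each group (n = 3) and axes from 0. The ASC tumors lie below Control for Col18a1 and Col4a6 and above it for Col1a1, and As300 lies below Control for Col12a1.

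The summed level of 6 epithelial markers was also lower in the tumors with ASC. It was 25.5 to 47.1 CPM in the 6 tumors with ASC and 64.7 to 361 CPM in the 6 without, with no marker at 0 in all tumors of any group. Krt8, an epithelial keratin, made up most of it and fell with ASC, by 2.03 on the log2 scale (SE 0.34, adjusted p = 0.00632). Of the 6 markers, 4 had negative estimates and 1 was called, where 1.45% of all genes were. The part of these cells in the values of Col18a1, Col7a1, Col4a6 and Col11a1 was not tested. The summed fibroblast markers given above overlapped between ASC and Control.

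Some pairs of abundant chains of 1 collagen varied together across tumors and others did not, on log2 CPM of the 12 tumors, which share library scaling within each pair. For 12 pairs chosen by structure or position, Pearson's r was highest for Col4a1 and Col4a2, whose starts are printed above, at 0.924 (permutation p = 3e-05, adjusted p = 0.00036; Spearman's rho 0.916, permutation p = 9e-05, adjusted p = 0.00054). Without the 2 tumors farthest from the median r was 0.881, and within groups 0.951. Col6a1 and Col6a2 gave r = 0.904 (permutation p = 6e-05, adjusted p = 0.00036), rho = 0.930 (permutation p = 5e-05, adjusted p = 0.00054) and 0.843 without 2 tumors.

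Col1a1 and Col1a2 gave r = 0.770 (permutation p = 0.00418, adjusted p = 0.0100) and rho = 0.664 (permutation p = 0.0217, adjusted p = 0.0481). Without Control replicate 1 and ASC replicate 2, the tumors farthest from the median of Col1a1, their r was 0.464, without Control replicate 1 alone 0.749, and within groups 0.857. Col4a5 and Col4a6 gave r = 0.657 (permutation p = 0.0220, adjusted p = 0.0439) and rho = 0.657 (permutation p = 0.0240, adjusted p = 0.0481), and 0.476 without 2 tumors. Col4a3 and Col4a4, whose shared start region is shown above, gave r = 0.552 (permutation p = 0.0626, adjusted p = 0.0939) and rho = 0.413 (permutation p = 0.184, adjusted p = 0.277) at counts of 10 to 41. Of the other 7 pairs, Col3a1 with Col5a2 and Col5a1 with Col5a2 passed an adjusted p of 0.05 on both measures. Col1a1 with Col3a1 passed on Pearson's r alone. Col6a5 with Col6a6, Col8a1 with Col8a2 and Col11a1 with Col11a2 did not pass. Nor did the abundant Col6a1 with Col6a3 (r = 0.327, permutation p = 0.299, adjusted p = 0.359). For Col11a1 and Col11a2 r was 0.455 over 12 tumors and 0.904 without Control replicate 1 and ASC_As300 replicate 2.

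**Figure D4:**
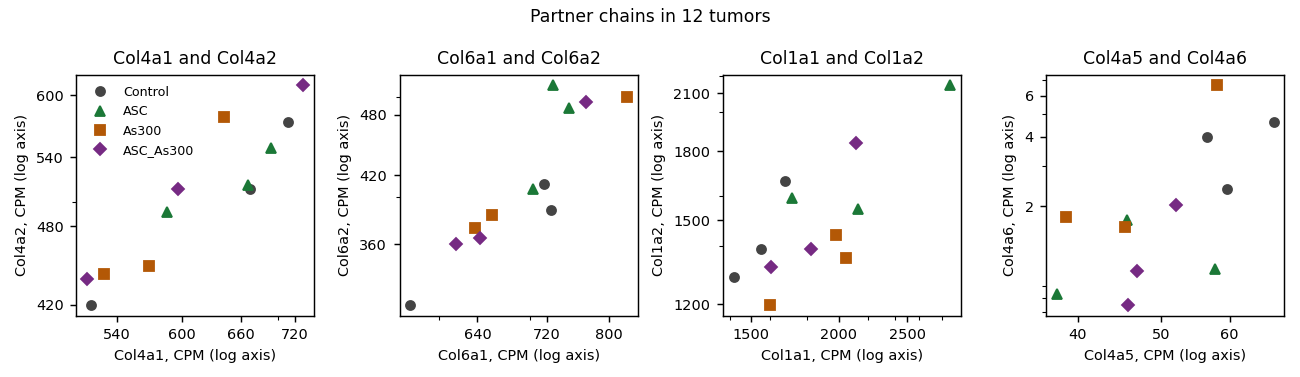
CPM of 4 pairs of partner chains in the 12 tumors, both axes on a log scale, with 1 point per tumor by group. The points follow a line for Col4a1 with Col4a2 and Col6a1 with Col6a2, and scatter more for Col1a1 with Col1a2 and Col4a5 with Col4a6.

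Collagen I is built from 2 Col1a1 chains and 1 Col1a2 chain. The ratio of Col1a1 to Col1a2 per kb was 0.993, 0.911 and 1.01 in Control, 0.973, 1.21 and 1.25 in ASC, 1.24, 1.36 and 1.20 in As300 and 1.09, 1.04 and 1.19 in ASC_As300. The As300 and ASC_As300 tumors all lay above the Control tumors, and ASC overlapped Control. The group means were 0.971 ± 0.0523 (SD, n = 3), 1.14 ± 0.148, 1.27 ± 0.0820 and 1.11 ± 0.0749. Averaged over both ASC levels, the log2 ratio was higher with iAs by 0.17 (exact permutation test within each ASC level, two-sided, p = 0.105, where 0.005 is the smallest possible). This test was chosen after the values were seen and was 1 of 6, for the ASC and iAs effects on 3 ratios, whose adjusted p were 0.21 to 0.95. The size of the ratio depends on the length used for each gene, and the order of the tumors does not. The ratio of Col4a1 to Col4a2 had group means of 1.15 to 1.23, and that of Col6a1 to Col6a2 of 1.503 to 1.74.

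The genes that fold, export, cross-link, bind and degrade collagen were taken from 7 lists holding 110 genes, 104 of them tested. For the ASC effect 3 rose and 1 fell, or 4 of 104 against 1.45% of all genes. ASC against Control gave 2 higher calls (0.721% of all genes were called) and ASC_As300 against Control 3 (0.807%). ASC_As300 against As300 gave 2 higher and 1 lower (0.855%). ASC_As300 against ASC, As300 against Control, the iAs effect and the interaction gave 0, where 0%, 1.06%, 0% and 0% of all genes were called. The lists were chosen with earlier results of these data known, so these counts are not a test of the lists.

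Tgm2, a transglutaminase that cross-links matrix proteins, was called in each comparison of tumors with ASC against tumors without. It gave 64.3, 62.4 and 51.3 CPM in Control, 108.4, 108.4 and 93.7 in ASC, 79.0, 59.8 and 61.0 in As300 and 107.9, 104.8 and 125.4 in ASC_As300. All 6 tumors with ASC lay above the 6 without, and Tgm2 rose by 0.78 on the log2 scale (SE 0.089, adjusted p = 0.000285). Loxl1, a lysyl oxidase of the same list, had an ASC effect of 0.42 (SE 0.096, adjusted p = 0.0447), under the fold minimum.

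Lair1, an inhibitory collagen receptor of leukocytes, gave 10.9, 13.4 and 10.4 CPM in Control, 33.9, 25.7 and 20.9 in ASC, 11.7, 11.8 and 14.3 in As300 and 23.5, 30.1 and 28.6 in ASC_As300. Again the tumors with and without ASC did not overlap, and Lair1 rose by 1.17 on the log2 scale (SE 0.13, adjusted p = 0.000209). The summed leukocyte markers were 215 to 295 CPM with ASC and 150 to 282 CPM without, with no marker at 0 in all tumors of a group. The 282 CPM was Control replicate 1, and the other tumors without ASC reached at most 207 CPM. Of the 5, 0 were called for the ASC effect, but Adgre1 (0.48, adjusted p = 0.141), Cd3e (1.72, adjusted p = 0.215) and Ptprc (0.48, adjusted p = 0.432) were higher and Cd79a (-2.11, adjusted p = 0.35) lower at an unadjusted p under 0.05. Over all genes 6.93% were higher and 3.96% lower at that unadjusted p. Cd79a had 47.0 CPM in Control replicate 1 and at most 2.44 CPM in any other tumor. The part of leukocytes in the Lair1 values was not tested. The other 10 tested receptors, including the discoidin domain receptors and the collagen-binding integrins, were not called. Ddr2 in As300 against Control was -0.39 (SE 0.096, adjusted p = 0.04955), under the fold minimum. The ASC, As300 and ASC_As300 tumors all lay below Control for Ddr2.

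Of the 20 tested genes of collagen breakdown and uptake, 2 were called for the ASC effect (1.45% of all genes), in opposite directions. Mmp13, a collagenase, gave 5.29, 7.73 and 11.2 CPM in Control, 18.6, 16.7 and 11.1 in ASC, 11.1, 12.9 and 8.55 in As300 and 21.4, 23.1 and 19.5 in ASC_As300. It rose by 0.96 (SE 0.19, adjusted p = 0.0165), although ASC replicate 3 overlapped the tumors without ASC. Without ASC replicate 1, As300 replicate 3 or ASC_As300 replicate 2 its adjusted p was 0.0507 to 0.0532. Mmp9, a gelatinase, gave 23.0, 13.5 and 29.3 CPM in Control, 10.8, 10.99 and 11.4 in ASC, 23.0, 21.3 and 44.2 in As300 and 10.3, 11.3 and 9.26 in ASC_As300. Here all tumors with ASC lay below those without, and Mmp9 fell by 1.26 on the log2 scale (SE 0.21, adjusted p = 0.00519).

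The 22 genes of folding and modification gave 0 calls in every comparison by edgeR. For the ASC effect 5 of them were higher and 1 lower at an unadjusted p under 0.05 (6.93% and 3.96% of all genes), with Pdia4, a disulfide isomerase, at 0.27 (SE 0.058, adjusted p = 0.0276) and under the fold minimum. For the iAs effect 7 were higher and 1 lower at an unadjusted p under 0.05 (7.51% and 8.46% of all genes), led by Plod1, a lysyl hydroxylase (0.26, adjusted p = 0.182). The lists of export and processing (14 tested), small leucine-rich proteoglycans and fibril partners (13 tested) and basement membrane partners (17 tested) gave 0 calls in all 8 comparisons. Furin, of the export and processing list, was 0.48 in ASC_As300 against Control (SE 0.086, adjusted p = 0.0196), under the fold minimum. In the proteoglycan list 12 of 13 genes had negative estimates for the iAs effect, beside a median of -0.02 over all genes. Ogn was at -1.05 (adjusted p = 0.240), Lum at -0.45 (adjusted p = 0.271) and Fmod at -1.14 (adjusted p = 0.277). Fmod was -0.41 without Control replicate 1, its highest tumor, and Ogn -0.58 and Lum -0.28 without ASC replicate 2. Of 10 further collagen chains outside the list, 8 were tested and 0 were called.

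**Figure D5:**
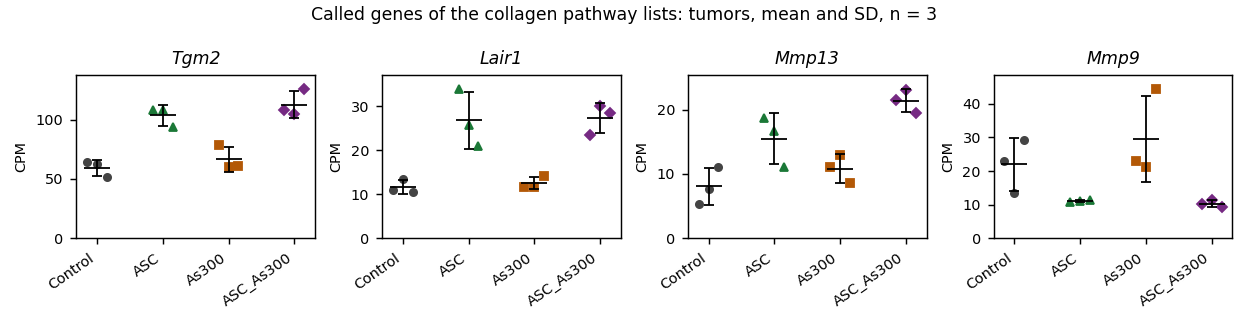
CPM of the 4 called genes of the pathway lists in each tumor, with the mean and SD of each group (n = 3) and axes from 0. Tgm2 and Lair1 are higher in every tumor with ASC than in every tumor without, and Mmp9 is lower.

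The genes most like the mean z-score of Col1a1, Col1a2 and Col3a1 over the 12 tumors, among all genes tested outside the list, were Fstl1 (r = 0.932), a secreted stromal glycoprotein, Eng (0.895), an endothelial TGF-beta co-receptor, Pla1a (0.889), Wfdc17 (0.888) and Fbn1 (0.886), which encodes the microfibril protein fibrillin. These values are a description over 12 tumors that share 4 groups.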

How the data were processed

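The authors deposited 1 table of whole-number counts per Ensembl gene for the 12 tumors, from TruSeq stranded poly(A) libraries sequenced in paired ends on a NovaSeq. The submitters' processing notes name cutadapt 1.1.0, HISAT2 2.0, StringTie 1.3.4, DESeq2 and edgeR. The genome build and the step that made the counts are not given in the sources used here. Genes at 4 counts (1137 to 1298 per tumor) outnumbered those at 3 (618 to 795) or 5 (380 to 414), and how many counts 1 read pair gives is not known.

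Symbols and transcript lengths came from GENCODE M21, which named 55141 of 55401 genes. Counts were fitted with edgeR 4.0.16 (R 4.3.3): filterByExpr, TMM, 1 mean per group over all 12 tumors, quasi-likelihood test. Log2 CPM for correlations had a prior of 0.05 CPM, and their permutation tests were two-sided with 100000 resamples. Alternatives covered DESeq2 1.42.0, scaling, filters, GC content, a replicate block and leaving out each tumor. Scripts were tested on simulated data. Values per tumor are given for the main chains, any called gene and the 2 collagens with the smallest p in each comparison, and for the lists every called gene or up to 3 with the smallest p. The collagens and gene lists were chosen with earlier results of these data known. P-values measure the spread between tumors, each of a separate mouse.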

Additional observations from a re-analysis of the deposited data

How the results depend on the processing

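No called value changed sign under the alternatives run, though the sign of some medians did (below), and 12 values that answer a comparison moved while 370 kept their direction and side of the threshold or stayed within their spread. The count of collagens called for the ASC effect was 1 with no fold minimum (Col18a1; 1.91% of all genes), 1 with DESeq2 (Col4a6, 2.11%) and 1 without Control replicate 3 (Col7a1, 1.18%), and it ran from 0 to 1 when each tumor was left out. In ASC_As300 against As300 it was 1 with DESeq2 (Col7a1, -0.64; 1.82%). In ASC against Control it was 1 with a GC correction (Col18a1, -0.68; 0.754%) and 1 without ASC replicate 1 (Col1a1, 1.63%), with a range of 0 to 1. Without ASC replicate 3 it was 1 in As300 against Control (1.83% of all genes) and 1 for the iAs effect (0.27%), Col12a1 in both, with ranges of 0 to 1. The cause of these moves was not tested.

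Leaving out 1 tumor gave medians over the collagens of -0.10 to 0.17 for ASC against Control (-0.10 without ASC replicate 2), -0.18 to 0.066 for ASC_As300 against As300 (-0.18 without ASC_As300 replicate 2) and -0.26 to 0.15 for the interaction (-0.26 without ASC_As300 replicate 2), so the sign of these medians rests on single tumors. The share of counts in As300 was 1.12% when the most abundant gene was left out. Of the genes named singly, 440 values kept their call, 3 lost it and 7 gained it.

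Same-numbered tumors deviated together with a correlation of -0.124 to 0.172, so the numbers were not taken as pairs. With a replicate block 0 collagens were called in each comparison. The fit on only the compared tumors does not apply to the main effects and the interaction, and Col4a3 was not tested with counts divided by 4. Collagens under about 100 counts, such as Col4a3, Col4a4, Col10a1 and Col8a2, were limited by depth.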
